A study of Mus musculus with 10 samples.

Results

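The p53 node examined here comprises 10 genes, chosen by name from the 23086 gene symbols of the deposited table: Trp53 itself, its inhibitors Mdm2 and Mdm4, and 7 core p53 target genes (Cdkn1a, Ccng1, Phlda3, Trp53inp1, Zmat3, Eda2r and Sesn2). All 10 were in the table and all 10 passed the filter on low values (a mean of at least 10 over all libraries). Their RNA was measured by sequencing in 10 mouse tumours grown from BBN963, a urothelial carcinoma line whose name refers to the bladder carcinogen BBN. The ATM-WT group (5 libraries, A1 to A5) and the ATM-KO group (5 libraries, A11 to A15) differ in the label for ATM, a kinase activated by double-strand breaks in DNA, and tumours of both groups were taken at 500 mm3. The labels give no treatment, host strain, age or Trp53 genotype of the cells, and do not say how the knockout was made, from how many clones, or that each tumour came from its own animal. P-values therefore measure the spread between these samples, which may be technical.

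p53 is a transcription factor that is held at low activity by the MDM proteins and released after DNA damage. MDM2 is the ubiquitin ligase that sends p53 for degradation, and MDM4 is its partner, which binds p53 and blocks its transactivation. ATM phosphorylates p53, MDM2 and MDM4 after double-strand breaks, and p53 then switches on genes for cell cycle arrest, repair and cell death, among them Mdm2, which closes a feedback loop. Much of this control acts on protein, which was not measured here. The comparison asks how the messenger RNA of this node differs between tumours with and without ATM.

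The promoter sequences below are shown because half-sites of p53, decamers of which 2 make a full site, can be read in them. A further reason is that the genes they belong to differ in how they moved. They are from RefSeq (GRCm38.p6), which may not be the build the authors used. Windows from 250 bases before to 50 bases after a gene start were found for 8 of the 10 genes (10 windows). Trp53inp1 and Zmat3 had no entry. The half-site decamer, a pattern of 10 bases that reads alike on both strands, was searched without mismatches. It was found in 4 of the 10 windows, and in 8.36% of all 32851 windows of the same length. Capitals mark the decamers, and each stretch lies before the annotated start, 5′ to 3′ on the strand of the gene.
Cdkn1a: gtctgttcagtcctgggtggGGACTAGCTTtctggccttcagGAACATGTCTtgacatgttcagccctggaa
Ccng1: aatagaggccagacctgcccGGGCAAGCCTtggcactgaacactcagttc
Mdm2: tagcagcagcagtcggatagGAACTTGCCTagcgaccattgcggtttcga
Trp53: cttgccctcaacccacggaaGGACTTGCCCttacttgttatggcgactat
The Cdkn1a stretch (chr17:29090886-29090957, plus strand) belongs to the more upstream of its 2 windows and holds 2 decamers, 12 bases apart, as 0.359% of all windows hold at least 2. The Ccng1 stretch is chr11:40755442-40755491 (minus strand), the Mdm2 stretch chr10:117710915-117710964 (minus strand) and the Trp53 stretch chr11:69580264-69580313 (plus strand). The Ccng1, Mdm2 and Trp53 stretches hold 1 exact half-site each. Because no mismatch was allowed, near matches were neither counted nor marked. The 10 bases directly before the Ccng1 decamer, and those directly after the later Cdkn1a decamer, each differ from the pattern by 1 base. The marked Cdkn1a decamers therefore need not be the pair of a full site, and the Ccng1 stretch may hold more than a half-site. Binding of p53 was not measured. The windows of Mdm4, Phlda3, Sesn2 and Eda2r and the other Cdkn1a window had no exact decamer, which says only that these letters are not in those windows.

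The libraries summed to between 20.2 and 22.3 M (mega) normalized counts. Judged from how their low values are spaced, roughly 20.7 to 28.5 M reads lay behind each library other than A2 and A4. The estimate for A2 was 8.75 M. For A4 it was 25.5 M, which is not reliable. Some low A4 values, such as 4.97 (Lep), 9.96 (Actn3) and 14.9 (Acta1), lie in steps far wider than its estimated read of 0.82. A4 may therefore be much shallower than estimated. A2 and A4 stand apart within ATM-WT, with 4824 and 4266 genes listed at 0 against 2225 to 3602 in the other libraries, so for the 10 genes and their ratios values without both are given where they differ in call or direction or by over 1.5 times, and for all 10 genes in the plot of changes with intervals. Atm RNA itself overlapped between the groups, at 311 to 768 normalized counts in ATM-WT and 312 to 659 in ATM-KO (log2 fold change -0.07 ± 0.26 SE, limma adjusted p = 0.85), and does not check the genotype labels. The epithelial and urothelial markers that go with the tissue label were lower in ATM-KO. The summed level of 12 epithelial and urothelial markers was 84835 to 232685 in ATM-WT and 2603 to 4331 in ATM-KO. All 11 tested members of that list fell. Upk3a was at 0 in each of the ATM-KO libraries, while Krt18 (1709.7 ± 402, from 4524 ± 1693) and Gata3 (429.9 ± 50.1, from 841 ± 153) kept a moderate level. Summed fibroblast markers (8 of 8 lower) were 134911 to 468101 in ATM-WT and 29107 to 85544 in ATM-KO. Those of adipocytes were 887 to 1457 and 538 to 690.2, a sum made up mostly of Fabp4, the 1 of 3 tested that fell, and the list median was 0.67. Those of B cells (1 of 2 tested higher, Cd79a) were 40.6 to 86.1 and 242 to 282. Endothelial, macrophage, T cell and skeletal muscle sums overlapped between the groups. Among their genes Kdr fell (1 of 6 endothelial), and Cd68 (1 of 6 macrophage) and Cd4 (1 of 7 T cell) rose. None of the skeletal muscle genes passed. The part of cell makeup in the results that follow was not tested, and in bulk tumour RNA fewer cells of a type and less RNA per cell cannot be told apart.

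The 10 genes did not move as a block. Between ATM-KO and ATM-WT 4 fell (Mdm4, Trp53inp1, Phlda3 and Cdkn1a), 2 rose (Ccng1 and Zmat3) and 4 did not pass (Trp53, Mdm2, Eda2r and Sesn2), by limma with an adjusted p threshold of 0.05. Genotype differences were widespread in this series: 46.4% of the 16517 genes tested were called, made up of 22.1% higher and 24.3% lower in ATM-KO. Against that background the 6 of 10 members called are not a result about the members. The median log2 fold change was -0.47 over the 10 members and 0.0047 over all genes tested. Fold changes are differences of mean log2(value + 1), positive where ATM-KO is higher, with SE. Levels are normalized counts with mean ± SD (n = 5 libraries per group), and library values are listed in the order A1 to A5 and A11 to A15.

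**Figure D1:**
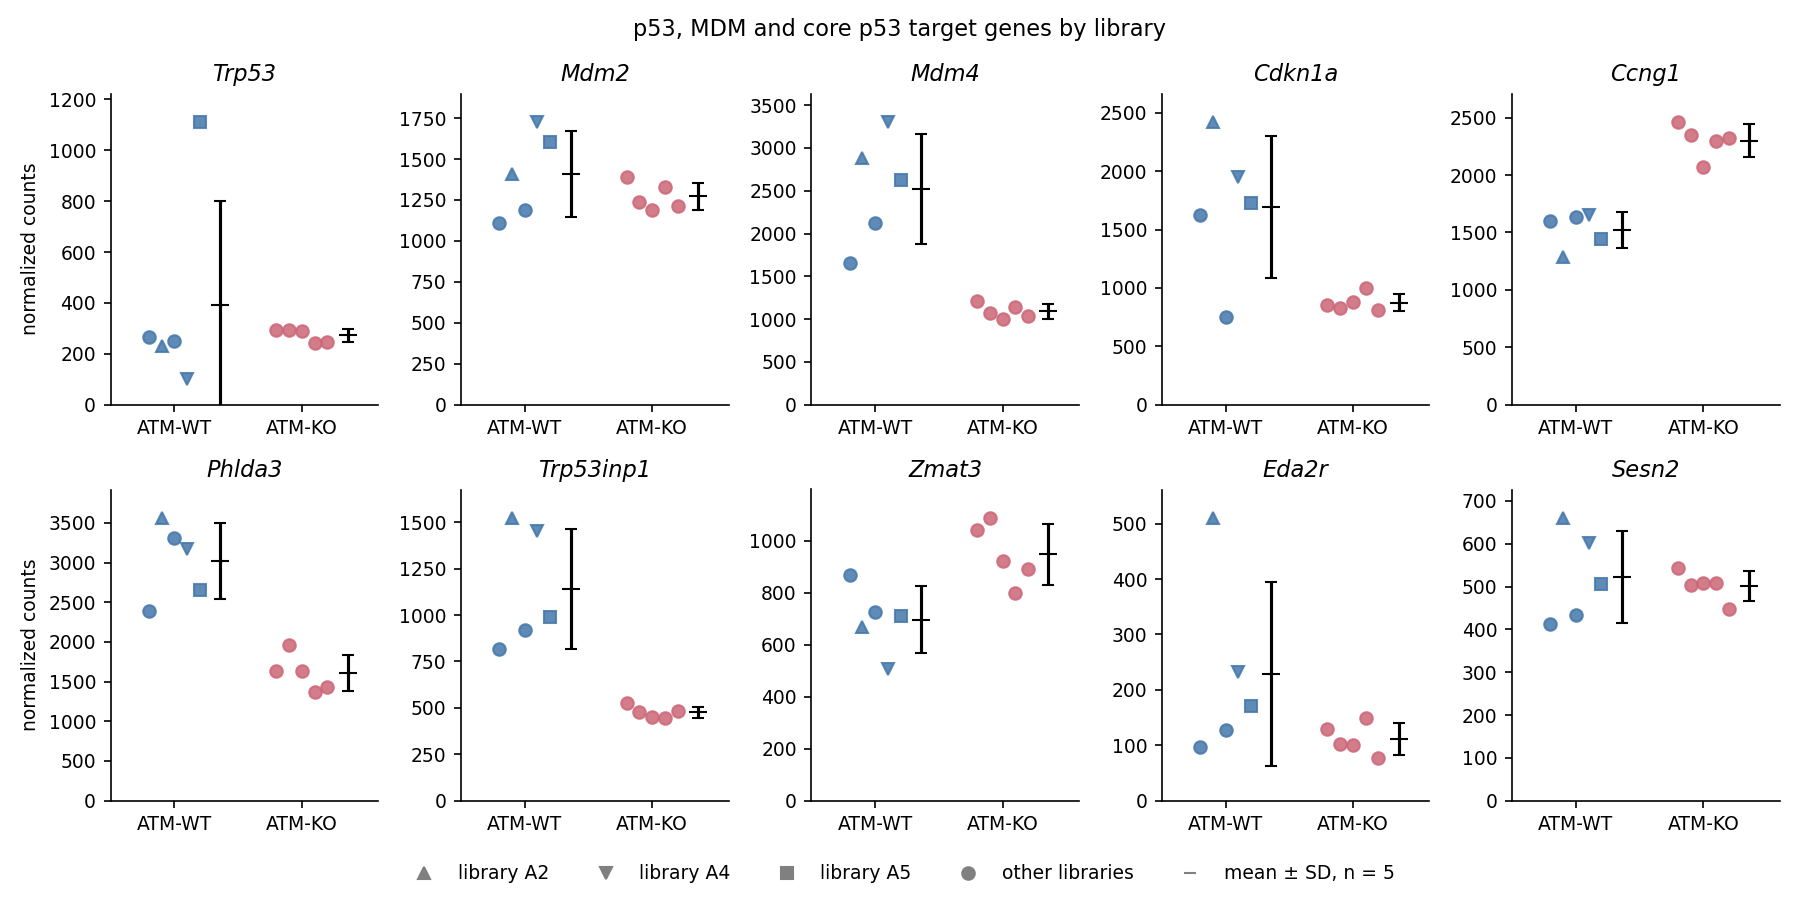
Normalized counts (y axis, from 0) of the 10 genes in each ATM-WT (blue) and ATM-KO (red) library, with the mean ± SD of each group beside the points (the lower SD bar of Trp53 in ATM-WT runs below 0 and is not drawn there). The groups separate fully for Mdm4, Phlda3, Trp53inp1 and Ccng1, and a single ATM-WT library, A5 (square), carries the high Trp53 value of 1112.

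Trp53 RNA had nearly the same mean log2 level in both genotypes, but a very different spread. Levels were 267, 229, 251, 100.5 and 1112 in ATM-WT tumours and 294, 293, 288, 241 and 248 in ATM-KO tumours. The 5 ATM-KO tumours thus lay within a narrow band, while in ATM-WT A5 was far above, and A2 and A4 were below, every ATM-KO tumour. The means were 392 ± 408 and 273 ± 26.3, with a log2 fold change of -0.05 ± 0.47 (95% interval -1.06 to 0.97, limma adjusted p = 0.95). That interval spans changes of about 2-fold in either direction, so a moderate difference in Trp53 was not detectable here. The value depended on single ATM-WT libraries. Without A5 the log2 fold change was 0.45 (adjusted p = 0.21), without A2 and A4 it was -0.63 (adjusted p = 0.22), and with sample weights it was -0.61 (adjusted p = 0.28, range over all alternatives 0.21 to 0.999).

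Mdm2, the p53-induced ubiquitin ligase, kept a similar level in both groups. The ATM-WT libraries held 1109, 1408, 1189, 1727 and 1605 and the ATM-KO libraries 1391, 1239, 1189, 1326 and 1212. Every ATM-KO value lay inside the ATM-WT range. The log2 fold change was -0.13 ± 0.13 (95% interval -0.40 to 0.15, adjusted p = 0.43), and -0.02 without A2 and A4.

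Mdm4, the non-ligase inhibitor, fell clearly. ATM-WT libraries held 1651, 2877, 2127, 3306 and 2631, and ATM-KO libraries 1215, 1071, 999.5, 1141 and 1034. The lowest ATM-WT tumour, A1, was above the highest ATM-KO tumour, A11. The mean went from 2518 ± 645 to 1092 ± 86.4, a log2 fold change of -1.17 ± 0.16 (adjusted p = 9.08e-05). Without A2 and A4, the libraries with the most Mdm4, it was -0.95 and still passed.

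The arrest gene Cdkn1a, which encodes the CDK inhibitor p21 and is the best known p53 target, fell, but with overlap. ATM-WT libraries held 1624, 2424, 754, 1951 and 1727 and ATM-KO libraries 850.3, 831, 880.3, 995 and 815. In ATM-WT, 4 tumours were above every ATM-KO tumour, and A3 was below all of them. The mean went from 1696 ± 610.1 to 874 ± 71.9, a log2 fold change of -0.86 ± 0.24 (adjusted p = 0.012). Without A2 and A4 it was -0.56 and no longer passed (adjusted p = 0.067, range over all alternatives 2.70e-05 to 0.067).

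Trp53inp1, which encodes a nuclear p53-induced protein that promotes p53 activity and autophagy, fell by about as much as Mdm4. ATM-WT libraries held 815, 1524, 919, 1455 and 991 and ATM-KO libraries 524, 475, 452, 445 and 482. The groups did not overlap, and A2 and A4 were the highest. The log2 fold change was -1.22 ± 0.17 (adjusted p = 9.92e-05), and without A2 and A4 it was -0.93 and still passed. Phlda3 encodes a pleckstrin-homology protein that restrains AKT. Its levels were 2396, 3564, 3314, 3174 and 2652 in ATM-WT and 1628, 1958, 1636, 1373 and 1434 in ATM-KO. These groups did not overlap either, at -0.91 ± 0.13 (adjusted p = 1.19e-04).

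In contrast, 2 targets rose. Ccng1 encodes cyclin G1, which recruits a phosphatase to MDM2. It was at 1598, 1286, 1638, 1649.7 and 1447 in ATM-WT and at 2464, 2345, 2067, 2297 and 2324 in ATM-KO. Every ATM-KO tumour was above every ATM-WT tumour, and the mean went from 1524 ± 156 to 2299.5 ± 145 (0.60 ± 0.10, adjusted p = 2.48e-04). Zmat3 encodes a zinc-finger RNA-binding protein. Its ATM-WT values were 869, 669, 726, 509 and 713 and its ATM-KO values 1043, 1089, 921, 800.4 and 891. The groups overlapped through A1 and A14, and the log2 fold change was 0.46 ± 0.14 (adjusted p = 0.021). The Zmat3 call was lost without A11 (0.42, adjusted p = 0.053), without A12 (0.40, adjusted p = 0.056) and without A2 and A4 together (0.30, adjusted p = 0.074), in a range over all alternatives of 0.0072 to 0.074. Of the 10 genes, 4 had groups that did not overlap (Mdm4, Trp53inp1 and Phlda3 lower, Ccng1 higher). Of all genes tested 35.2% had such groups, 18.2% lower and 17% higher.

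The other 2 targets did not pass. Eda2r, a death-domain-lacking TNF receptor family member also called XEDAR, held 96.5, 511, 128, 233 and 171 in ATM-WT and 129, 101, 99.98, 149.7 and 77.1 in ATM-KO. A2, A4 and A5 were above every ATM-KO tumour, and A1 and A3 lay among them. Its log2 fold change was -0.81 ± 0.39 (95% interval -1.65 to 0.04, adjusted p = 0.11), without A1 it was -1.05 and passed (adjusted p = 0.035), and without A2 and A4, the libraries with most Eda2r, it was -0.24 (adjusted p = 0.51, range over all alternatives 0.035 to 0.51). Sesn2 encodes sestrin 2, a leucine sensor upstream of mTORC1 that ATF4 also induces. Its ATM-WT values of 413, 661, 433, 601 and 505 enclosed its ATM-KO values of 543, 503, 509, 507 and 446 (-0.04 ± 0.15, 95% interval -0.36 to 0.28, adjusted p = 0.86), and without A2 and A4 the change was 0.16 (adjusted p = 0.32).

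**Figure D2:**
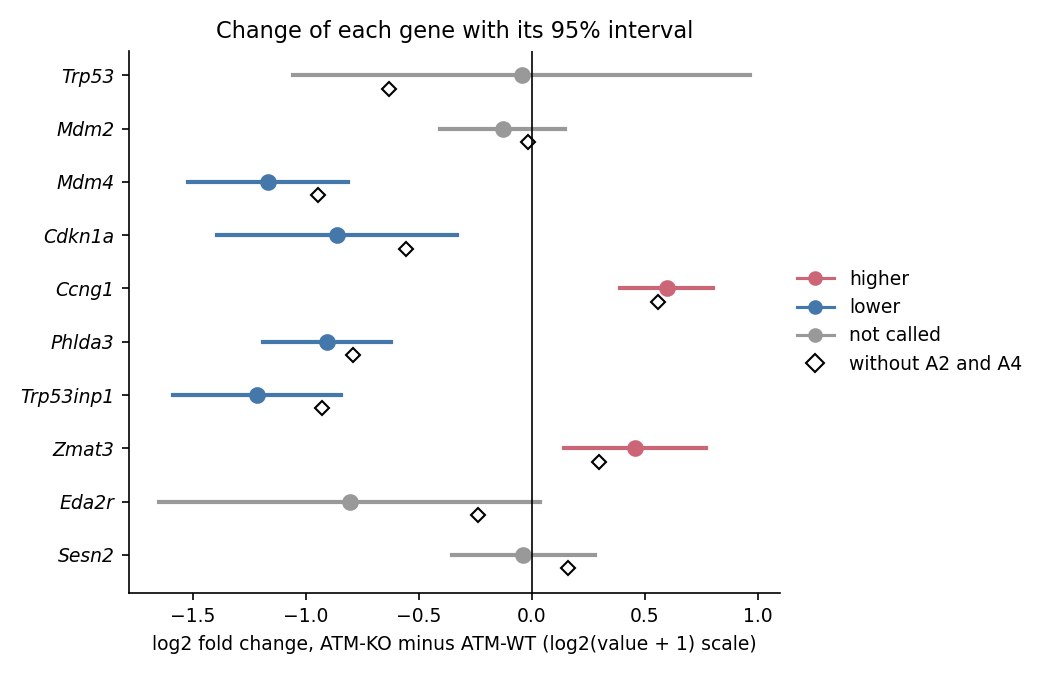
Log2 fold change of each gene (x axis, ATM-KO minus ATM-WT) from limma with its 95% interval, coloured by call, and the value without ATM-WT libraries A2 and A4 (open diamonds). Mdm4, Phlda3, Trp53inp1 and Cdkn1a stay below 0 and Ccng1 and Zmat3 above 0, while the interval of Trp53 runs from -1.06 to 0.97. Cdkn1a and Zmat3 keep their side of 0 without A2 and A4 but lose their calls.

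Ratios between genes of the same library do not depend on how that library was scaled. Because values are not per length, a ratio is compared only between groups and says nothing of which RNA is more abundant. Of 3 ratios examined, Mdm4 to Mdm2 was the only one to pass. Its linear values were 1.49, 2.04, 1.79, 1.91 and 1.64 in ATM-WT and 0.873, 0.864, 0.841, 0.860 and 0.853 in ATM-KO. The ATM-KO tumours were nearly identical and all lay below the lowest ATM-WT tumour. The log2 ratio differed by -1.04 (exact two-sided permutation p = 0.0079, the smallest that 252 splits can give, adjusted p = 0.024 over the 3 ratios, lower in 5 of 5 ATM-KO libraries). Without A2 and A4 it was -0.93 and the groups still did not overlap. The exact permutation p was 0.018, the smallest that the 56 splits of 3 against 5 libraries can give, so with adjustment (0.054) this ratio alone could not pass there.

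The ratios to Trp53 carried the spread of Trp53. Mdm2 to Trp53 was 4.13, 6.11, 4.71, 17.03 and 1.44 in ATM-WT and 4.11 to 5.49 in ATM-KO. A4 and A5 lay at the extremes, and the log2 difference was -0.08 (exact permutation adjusted p = 0.79), or 0.62 without A2 and A4 (adjusted p = 0.16). Cdkn1a to Trp53 was 6.05, 10.5, 2.99, 19.2 and 1.55 in ATM-WT and 2.83 to 4.12 in ATM-KO, with a log2 difference of -0.82 (exact permutation p = 0.26, adjusted p = 0.39). Without A5 that difference was -1.28 (adjusted p = 0.048), and without A2 and A4 it was 0.07 (adjusted p = 0.88).

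**Figure D3:**
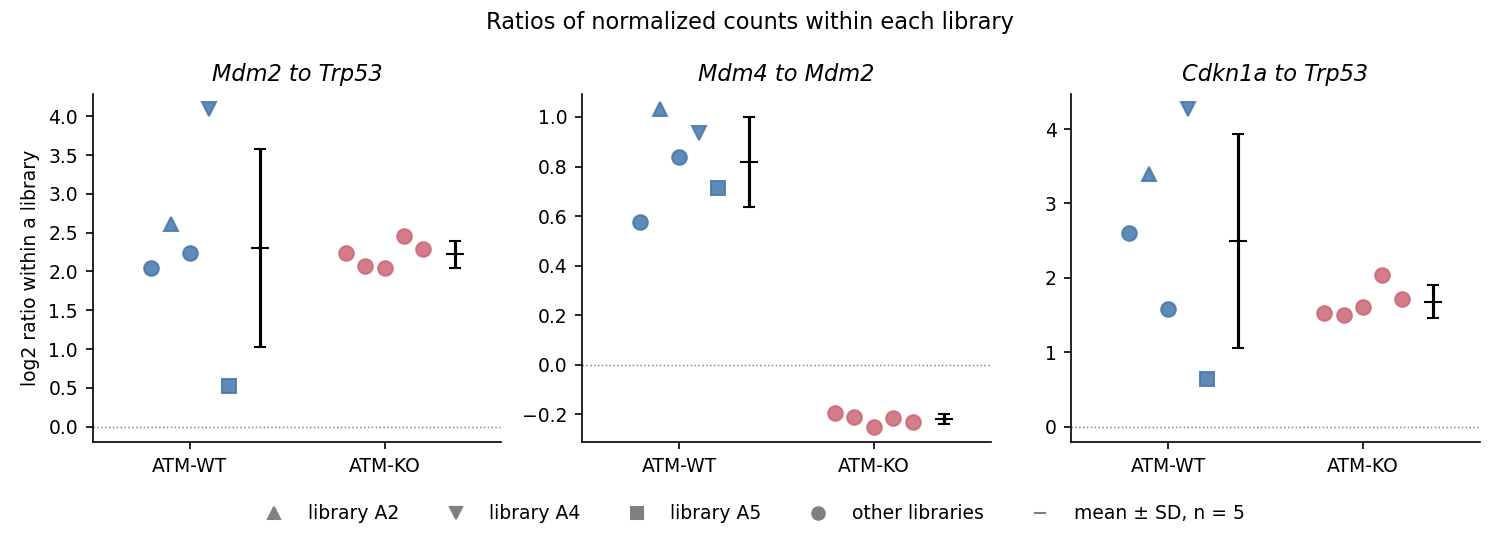
Log2 ratios of normalized counts within each library (y axis) for 3 gene pairs, with mean ± SD per group. Mdm4 to Mdm2 separates the genotypes, from 0.82 ± 0.18 in ATM-WT to -0.22 ± 0.02 in ATM-KO, while the ratios to Trp53 are spread widely in ATM-WT by A4 and A5.

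The ATM-WT tumours varied more than the ATM-KO tumours in all 10 genes. The median SD of log2 values over the members was 0.34 in ATM-WT and 0.11 in ATM-KO. Over all genes tested 80.5% had the larger SD in ATM-WT (median SD 0.39 and 0.21). Within ATM-WT, A2 and A4 held the highest values of 5 genes (Mdm4, Cdkn1a, Trp53inp1, Eda2r and Sesn2), as they did for 20.8% of all genes tested. They held the lowest values of Trp53 and Zmat3, as they did for 19.6% of all genes. For Eda2r the mean of A2 and A4 was 372 against 132 in A1, A3 and A5, and for Trp53inp1 it was 1489 against 908. The summed epithelial markers were also highest in A2 and A4, at 84835, 232685, 86456, 183287 and 139245 in A1 to A5. Their part in the order of the ATM-WT values was not tested.

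**Figure D4:**
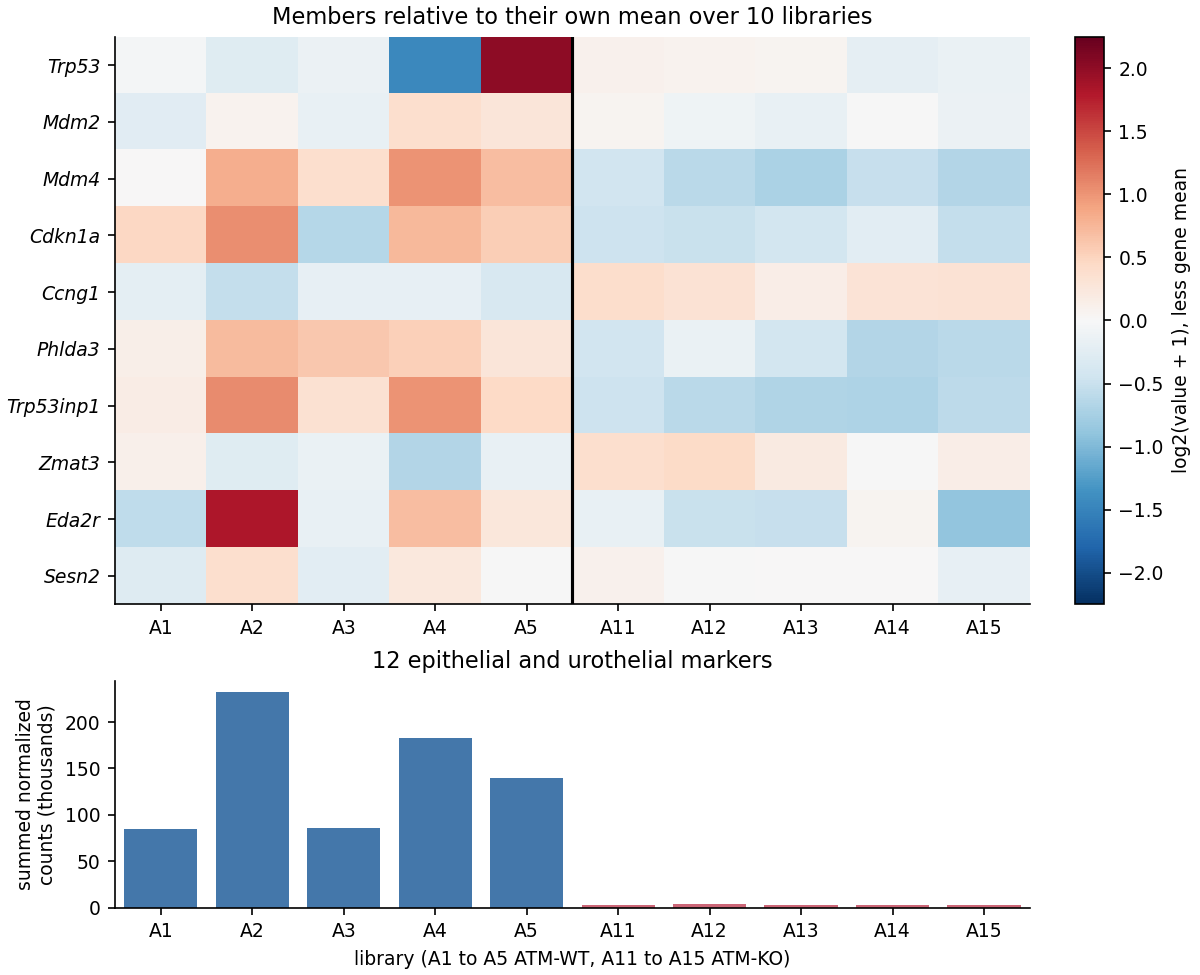
Upper panel, log2(value + 1) of each gene less its own mean over the 10 libraries (red above, blue below). Lower panel, summed normalized counts of 12 epithelial and urothelial markers (bars from 0). A2 and A4 are high in Mdm4, Cdkn1a, Trp53inp1 and Eda2r and have the tallest marker bars, and the ATM-KO libraries vary less than the ATM-WT libraries in every row.

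By the root-mean-square difference of log2 profiles over the 10 libraries, the genes most like Trp53 were Neurl3 (0.43), Gvin-ps7 (0.44) and AW112010 (0.45), where the median over 13347 genes was 0.89. Each of them was also highest in A5, where Neurl3 held 1512.5, Gvin-ps7 879 and AW112010 2374. Among those most like Mdm2 were Slc25a37 (0.088) and Zmym5 (0.094). Most like Cdkn1a were Cd24a (0.10), Kdm3a (0.16) and Emp2 (0.19). Cd24a also had its lowest ATM-WT value, 5040.1, in A3, where Cdkn1a was low. These are descriptions over 10 libraries that share the genotype difference.

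Further p53 targets went both ways as well. Of 41 genes of arrest, repair, metabolism and stress, 12 rose, 15 fell and 14 did not pass (65.9% called, median log2 fold change -0.17). Of all genes tested 46.4% were called, 22.1% higher and 24.3% lower, so such counts alone are not a result about a list. Among those that rose were Gtse1, a G2-phase protein that exports p53 from the nucleus (from 274 ± 42.3 to 941 ± 62.6, 1.79 ± 0.13), and the ribosomal protein relative Rps27l (from 2306 ± 343 to 4989.6 ± 776, 1.11 ± 0.13). Rps27l closely resembles Rps27 and may share reads with it. Among those that fell were the antiproliferative gene Btg2 (from 859 ± 194 to 417 ± 29.0, -1.02 ± 0.15), the receptor-type phosphatase gene Ptprv (-2.53 ± 0.39), the epoxide hydrolase gene Ephx1 (-1.69 ± 0.20) and the xylulose reductase gene Dcxr (-1.38 ± 0.21). Limma adjusted p-values of these 6 genes were at most 1.97e-04.

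Cell death targets were similarly mixed, with 3 higher, 5 lower and 7 not passing of 15. The share called was 53.3%, against 46.4% of all genes tested, and the median was 0.12. The death receptor gene Tnfrsf10b rose from 361 ± 106 to 809 ± 53.9 (1.22 ± 0.21), and Siva1, a CD27-binding death factor gene, from 542 ± 120.4 to 1698 ± 206 (1.66 ± 0.15). Perp, which encodes a desmosome protein and is also a target of p63, fell from 11550.5 ± 8683 to 932 ± 254 (-3.29 ± 0.46). Its ATM-WT values of 3235, 23554, 4777, 17435 and 8752 were highest in A2 and A4. Bid, a BH3-only gene (-0.75 ± 0.13), the inflammatory caspase gene Casp1 (-1.09 ± 0.21) and the kinase gene Dapk1 (-1.06 ± 0.25) fell too. Without A4, 5 cell death genes were higher.

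Most regulators of p53 protein did not pass. Of 29 tested, 4 rose, 4 fell and 21 did not pass (27.6% called, against 46.4% of all genes tested, median 0.03). Without A2, 9 were higher. Topors, a ubiquitin and SUMO ligase gene, rose with no overlap between the groups (from 845 ± 57.0 to 1709 ± 69.7, 1.02 ± 0.09), as did the lysine methyltransferase gene Setd7 (0.82 ± 0.11) and Aimp2 (0.84 ± 0.12). The 4 that fell were Trp53bp1, which encodes the break-site scaffold 53BP1 (from 1463 ± 406 to 654 ± 104, -1.13 ± 0.19), Trp53bp2 (-0.79 ± 0.14), the acetyltransferase gene Crebbp (-0.78 ± 0.15, named after its value was seen) and Ppp1r13l, which encodes the inhibitor iASPP (from 1191 ± 336 to 497 ± 40.6, -1.21 ± 0.18). The phosphatase gene Ppm1d, itself p53-induced, did not pass (-0.10 ± 0.16, adjusted p = 0.63). Neither did Cdkn2a, which encodes p16 and the MDM2 inhibitor ARF (from 5229 ± 691 to 4675 ± 776, -0.17 ± 0.13, adjusted p = 0.31).

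The relatives of the members fell or did not pass. Of 13 tested, 0 rose and 8 fell (61.5% called, median -0.48). Among all genes tested 46.4% were called, with 24.3% lower. After quantile normalization 1 rose. The p53 family gene Trp63, a basal epithelial regulator, fell from 1586 ± 1092 to 24.8 ± 14.7 (-5.80 ± 0.55, adjusted p = 4.58e-06). Its ATM-WT values of 452, 2819, 648, 2611 and 1398 followed the same order as the epithelial marker sums. Trp73 fell from 88.9 ± 56.5 to 1.24 ± 2.04 and was listed at 0 in A14 and A15. The p21 relatives fell, Cdkn1b (p27) from 2348 ± 220.0 to 1372 ± 183 and Cdkn1c (p57) from 251 ± 85.7 to 21.8 ± 11.5. Among sestrins, Sesn3 fell from 2868 ± 545 to 991 ± 256 (-1.55 ± 0.17), while Sesn1 did not pass (-0.32 ± 0.16, adjusted p = 0.11). The cyclin relatives Ccng2 (-0.48 ± 0.15) and Ccni (-0.32 ± 0.09) were lower where Ccng1 was higher.

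Genes listed as repressed by p21 through the DREAM complex, the cell cycle repressor assembly, rose nearly throughout. Of 25 tested, 24 rose and 0 fell (96% called, median 1.06), and the remaining gene was Chek1. Of all genes tested 46.4% were called, with 22.1% higher. Cyclin A2 gene Ccna2 (1.46 ± 0.10), the mitotic kinase gene Cdk1 (1.11 ± 0.10), Melk (1.45 ± 0.13), Bub1b (1.16 ± 0.11) and Mcm5 (1.15 ± 0.12) were among those with the smallest p-values. Within ATM-WT the summed list was lowest in A3 (22971) and highest in A2 (32373). Cdkn1a was likewise lowest in A3 (754) and highest in A2 (2424). The part of p21, or of cell division in general, in the rise of the list was not tested.

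**Figure D5:**
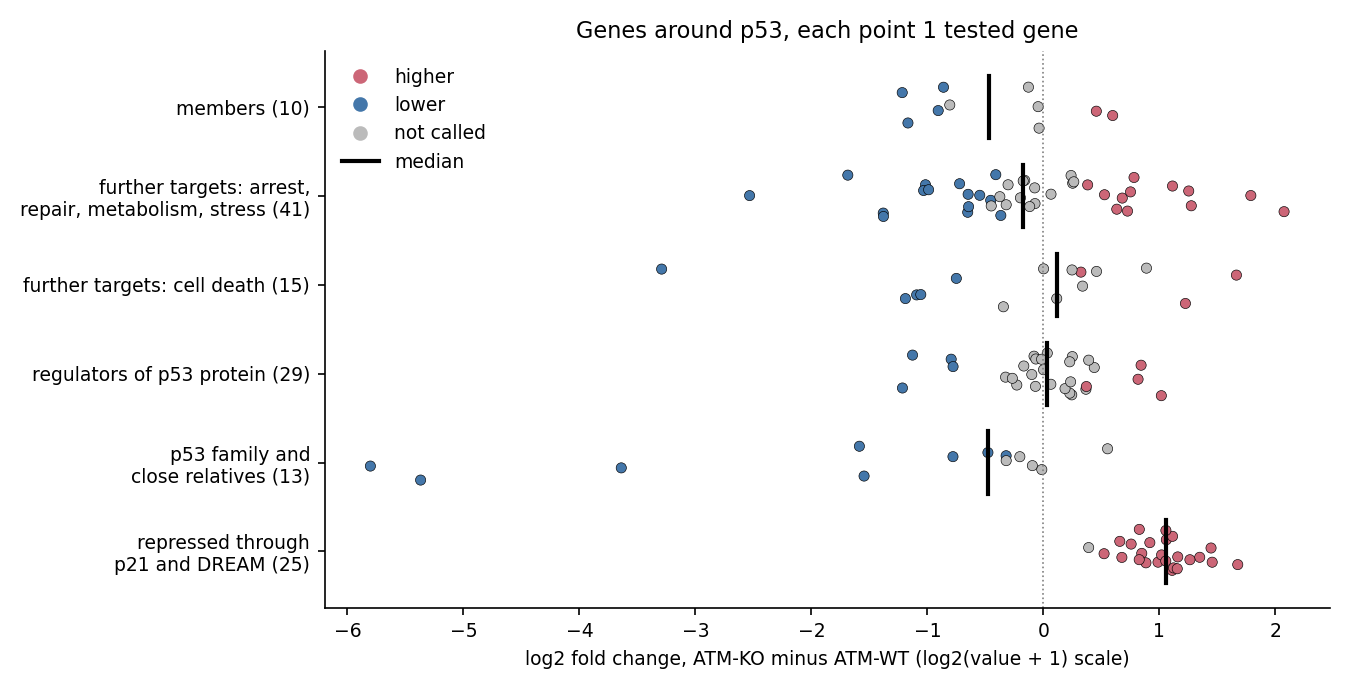
Log2 fold change (x axis, ATM-KO minus ATM-WT) of every tested gene of the members and of 5 further lists, coloured by call, with the median of each list as a bar and the number tested in parentheses. Members and further targets fall on both sides of 0, relatives lie mostly below 0, and genes listed as repressed through p21 and DREAM centre on 1.06.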

How the data were processed

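RNA of 10 tumours (5 ATM-WT, 5 ATM-KO) was extracted and sequenced by a company, per the labels' protocols. The authors deposited normalized counts per gene symbol, a signal that is never negative. The authors' tools were STAR, Salmon and DESeq2, per the submitters' processing notes. The build and the tools' versions are not given here, nor is the annotation. Column names give the genotype and a library number absent from the labels, so columns were assigned to groups only.

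The worth of 1 read was estimated per library, and 36.2% to 66.6% of the low values (at most 20 reads) were whole reads within 0.05, so counts were not recovered and no count model was run. The lowest share, 36.2%, was that of A4, and its depth estimate is not reliable. For the other libraries the estimate gives rough depths, and shallow libraries are less precise for low genes.

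Genes with a mean of at least 10 entered a limma fit (version 3.58.1, R 4.3.3, eBayes with trend) of log2(value + 1), with Benjamini-Hochberg adjustment over all genes and a threshold of 0.05. Ratios were tested by exact two-sided permutation. Python 3.11.15, numpy 2.4.6, pandas 2.3.3 and matplotlib 3.10.9 were used, and the fit was tested on simulated data.

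The members and all gene lists were chosen with earlier results of these data known. Named genes are the members, a few fixed relatives and regulators, and the 6 genes with the smallest p in each further list. Some genes that these rules name are not reported here. In the regulators list Trp53rk, and in the relatives Zmat4 and Edar, were not tested. Alternatives covered the pseudocount, filter, scaling, eBayes settings, sample weights and leaving out libraries.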

Additional observations from a re-analysis of the deposited data

Results flagged for a closer look

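In 3 of 96 groups of 5 values checked, a single library lay apart from the other 4 by more than Dixon's critical value, where chance alone gives about 1 in 20 groups. The Trp53 value of 1112 in ATM-WT library A5 was separated by 83.5% of the range of its group. The Dapk1 value of 741 in ATM-WT library A2 and the Trp73 value of 4.84 in ATM-KO library A12 were the others.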

How the results depend on the processing

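In all 20 alternatives, 4 of the 6 called members (Mdm4, Ccng1, Phlda3 and Trp53inp1) kept their direction and call. So did 33 of 35 named list genes in the alternatives that tested them (Trp73 was not tested with a mean of at least 50). The exceptions among list genes, neither of them called, were Atm (0.073 after quantile normalization and 0.060 without A2 and A4) and Ppm1d (0.084 and 0.065), which changed sign. Quantile normalization moved the median of all genes by 0.15, the split of all calls to 4514 higher and 3319 lower, from 3649 and 4017, and the uncalled Trp53 to 0.21 and Sesn2 to 0.083. It left 1 relative higher against 0. Sesn2 was 0.00149 with upper-quartile scaling.

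Without A2 and A4 the calls of Cdkn1a (-0.56) and Zmat3 (0.30) were lost, Sesn2 became 0.16, the Mdm2 to Trp53 ratio 0.62 and the Cdkn1a to Trp53 ratio 0.075. The Mdm4 to Mdm2 ratio was -0.93 there, with too few libraries for this ratio alone to pass after adjustment. Then 1 member was higher against 2, and 8 regulators against 4. The cause was not tested.

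Leaving out each library in turn gave -0.41 to 0.45 for Trp53, -0.21 (without A1) to -0.05 (without A4) for Mdm2, 0.35 to 0.54 for Zmat3, -1.05 to -0.45 for Eda2r, -0.12 to 0.053 for Sesn2, -0.21 to 0.12 for Atm and -0.20 to 0.0040 for Ppm1d. The ratio Mdm2 to Trp53 ranged from -0.53 to 0.36 and Cdkn1a to Trp53 from -1.28 to -0.37. Higher counts ranged from 1 to 2 for members, 3 to 5 for cell death targets and 3 to 9 for regulators. No paired analysis was possible because the columns carry library numbers, not the sample numbers of the labels. With 5 libraries per group and the ATM-WT spread of Trp53, changes inside its interval were not detectable.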
